A study of Xenopus tropicalis with 12 samples.

Results

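The later phase of amphibian metamorphosis in the liver was followed by comparing tadpoles of *Xenopus tropicalis*, the western clawed frog, at stage 66, the end of metamorphosis, with tadpoles at stage 61, its climax. The comparison rests on 6 of the 12 liver RNA libraries of the series, 3 from stage 66 (st66) and 3 from stage 61 (st61). All 6 came from wild-type, untreated tadpoles. The other libraries were 3 from untreated wild-type tadpoles at stage 54 (st54), before the climax, and 3 from wild-type stage 54 tadpoles kept for 18 h in T3, the active form of thyroid hormone, at 10 nM. The st54 libraries entered the fit as a further estimate of the spread, and their levels are given for reference. The T3 libraries were used in an alternative fit alone. The labels give the same parents for all tadpoles and different tadpoles for the 3 samples of a group.

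Thyroid hormone drives metamorphosis by binding receptors that sit on hormone response genes and switching those genes from repression to activation. Its level in the blood peaks at climax and declines towards the end of metamorphosis. In that time the tadpole liver, like the gut and skin, takes on adult functions while its larval ones are given up. In bulk tissue, fewer cells of a type and less RNA per cell cannot be told apart.

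Total counts were 18966115, 21060693 and 18641714 in st61 replicates 1 to 3 and 19812786, 7928459 and 8506341 in st66. The floor of 3 counts was worth 0.142 to 0.161 CPM (counts scaled to library size) in st61 and 0.151, 0.378 and 0.353 CPM in st66 replicates 1 to 3. Hepatocyte markers were abundant in all 6 libraries, with the albumin gene alb at 10113 to 13083 CPM in st61 and at 9330 to 19328 CPM in st66, so the tissue label held. The st66 libraries lay further apart than the st61 libraries, with a biological coefficient of variation of 39.8% against 23.9%. Replicate 1 of st66 stood apart from replicates 2 and 3: across genes, which do not count as independent replicates, its Spearman correlation with them was 0.926 and 0.905, while replicates 2 and 3 correlated at 0.973. The correlations of st66 replicate 1 with st61 replicates 1 to 3 were higher, at 0.937, 0.929 and 0.933. Those of st66 replicates 2 and 3 with the st61 libraries were 0.907 to 0.941. Ribosomal protein genes took 7.99% of the counts in st66 replicate 1 but 16.6% and 17.0% in replicates 2 and 3, against 8.47% to 10.9% in st61 (exact two-sided permutation p = 0.4, where 0.1 is the smallest p this design allows). Counts of lists and changes of single genes that moved most without this library are also given without it.

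Of 14724 genes tested, 284 (1.93%) were higher and 220 (1.49%) lower at st66 than at st61 at an adjusted p under 0.05, here called genes (quasi-likelihood test of edgeR, Benjamini-Hochberg adjusted over these genes). At least 2-fold changes made up 240 of the increases and 194 of the decreases. All 3 st66 libraries lay above all 3 st61 libraries in 283 of the 284 and below them in all 220. The same separation was found in 1814 genes (12.3%) upwards and 2039 genes (13.8%) downwards, called or not, and the median log2 change over all genes was 0.02. Nearly all called genes were separate, and the largest changes named below were chosen with separation as a condition. For a called gene, separate stages are therefore a description and no further support. At an unadjusted p under 0.05 in edgeR, 3014 of the 14724 genes differed in either direction. DESeq2 called 740 genes higher and 656 lower. These are the backgrounds for the unadjusted and DESeq2 counts of lists below. Levels below are CPM on scaled library sizes, in the order of replicates 1 to 3. Errors on log2 changes are standard errors, with n = 3 per stage. Without st66 replicate 1 the counts were 1614 higher and 1200 lower of 14966 genes tested, the background for the counts of lists in that setting. Of 75 called genes chosen to be named, 14 were called in all 18 alternatives, namely bbox1, akr1d1, tmprss2.5, cat.1, gstz1, polr1c, mlnr, lamb3, oat, bcl6, pacsin1, hebp2, gnmt and c3p1. The other 61 missed the threshold in at least 1 alternative, with a highest adjusted p of 0.0551 to 0.21 per gene. Leaving out st61 replicate 1, 2 or 3 ended 51, 59 and 36 of the 75 calls, leaving out st66 replicate 2 or 3 ended 49 and 35, and leaving out st66 replicate 1 ended 0.

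The hormone's own response genes were the first group examined, and 4 of 14 tested members fell while none rose (0 higher and 10 lower at an unadjusted p under 0.05 in edgeR, and 0 and 8 by DESeq2). thibz, a leucine zipper transcription factor that tadpoles make in response to the hormone (chromosome 3, 140193605 to 140202878), was at 311, 404 and 311 CPM in st61 and at 4.37, 21.7 and 25.5 CPM in st66. The stages did not overlap, and the log2 change was -4.33 ± 0.89 (20.2-fold lower, adjusted p = 0.032). At st54 thibz was at 0.122, 0.452 and 2.69 CPM, so all st66 values still lay above those of st54. bcl6, a transcriptional repressor gene (chromosome 5, 103321745 to 103338601), was at 70.8, 94.6 and 85.8 CPM in st61 and at 11.4, 5.15 and 11.5 CPM in st66. All st66 values lay far below all st61 values (log2 change -3.14 ± 0.32, adjusted p = 0.00312), within the range of 10.7 to 16.0 CPM at st54 except for replicate 2, which was lower. dio2, which encodes the activating deiodinase, fell from 14.3, 23.0 and 23.2 CPM to 6.95, 5.93 and 8.42 CPM (log2 change -1.51 ± 0.27, adjusted p = 0.0198). nfib, a nuclear factor I gene, fell from 68.5, 79.9 and 85.1 CPM to 38.5, 35.1 and 28.8 CPM (2.28-fold, adjusted p = 0.0129). For both genes the 2 stages were separate, and the st66 values lay above those of st54.

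Other members did not pass the test, although 10 of the 14 had all st66 libraries below all st61 libraries. nfic, another nuclear factor I gene, was at 204, 210 and 229 CPM in st61 and at 134, 117 and 131 CPM in st66 (adjusted p = 0.0841), against 3.17 to 5.0 CPM at st54. thrb, the hormone-inducible receptor gene, was at 20.7, 16.2 and 18.6 CPM in st61 and at 13.2, 13.4 and 15.6 CPM in st66 (adjusted p = 0.486), against 0.462 to 1.49 CPM at st54. The folds between the stages were 1.68 and 1.32, and all st66 values of both genes lay well above those of st54. klf9, an early hormone target, was at 26.8, 30.9 and 30.0 CPM in st61 and at 9.08, 19.7 and 31.6 CPM in st66, so the stages overlapped. dio3, the deiodinase that inactivates the hormone, was at 12.5, 13.3 and 10.6 CPM in st61 and at 6.09, 14.4 and 50.4 CPM in st66 (adjusted p = 0.441), against 435 to 934 CPM at st54. The median log2 change of the list was -0.82. The calls of thibz, dio2 and nfib were lost when single st61 or st66 libraries were left out, with adjusted p up to 0.12, 0.11 and 0.068, and that of bcl6 was kept in all 18 alternatives.

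**Figure D1:**
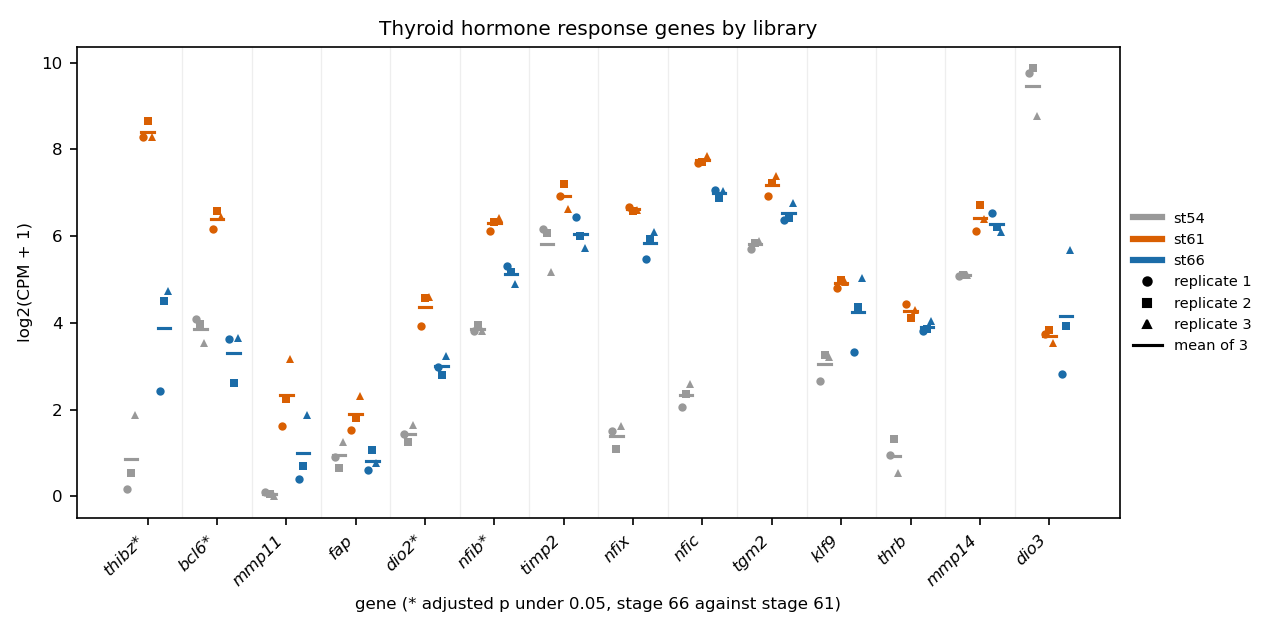
Levels of the 14 tested thyroid hormone response genes, as log2(CPM + 1), in each library of stages 54, 61 and 66. Points are libraries, with a shape for each replicate, lines are means of 3 libraries, and asterisks mark genes with an adjusted p under 0.05. The st66 points of thibz and bcl6 lie far below the st61 points, and those of nfic and thrb lie close to them.

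Among the hormone receptors, thra, the receptor gene present before climax, was at 3.22, 3.76 and 4.66 CPM in st61 and at 2.0, 1.56 and 1.54 CPM in st66, which did not overlap but missed the threshold (adjusted p = 0.0807). Of 10 genes of hormone transport and metabolism and 11 corticosteroid genes none was called. ttr, which encodes the hormone carrier transthyretin, was at 113 to 149 CPM in st61 and at 87.2 to 130 CPM in st66, overlapping.

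Bile acid synthesis held the largest named increase, in an enzyme that few reads covered at st61. cyp7a1, the rate-limiting enzyme of the pathway (chromosome 6, 116352903 to 116357128), was at 0.709, 0.224 and 0.375 CPM in st61, or 13, 5 and 7 reads, and at 207, 30.9 and 38.6 CPM in st66. Every st66 library lay far above every st61 library (log2 change 7.73 ± 1.29, adjusted p = 0.0163), and replicate 1 was the highest. Without st66 replicate 1 the log2 change of cyp7a1 was 6.34 and that of sult2b1, described next, moved from 4.26 to 3.39. At st54 cyp7a1 stood at 1344, 1652 and 111 CPM. akr1d1, the reductase that sets the bent shape of the bile acid steroid ring, rose from 65.4, 65.0 and 121 CPM to 550, 1346 and 1104 CPM (11.9-fold, adjusted p = 0.00554). sult2b1, a sulfotransferase that acts on sterols in mammals, rose from 5.07, 4.56 and 6.97 CPM to 201, 44.7 and 70.3 CPM (19.1-fold, adjusted p = 0.0162). slc51a, a subunit of the basolateral bile acid exporter, rose from 83.2, 55.3 and 68.8 CPM to 430, 259 and 184 CPM (adjusted p = 0.0424). None of these 3 genes overlapped between the stages. At st54 akr1d1 was at 738 to 1374 CPM and sult2b1 at 201 to 844 CPM.

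In all, 4 of 18 tested bile acid genes rose and 1 fell, with a median log2 change of 0.61. The gene that fell was acox2, a peroxisomal oxidase that shortens the side chain, from 525, 459 and 437 CPM to 251, 238 and 247 CPM (adjusted p = 0.0345). baat, which joins bile acids to amino acids, was at 44.6, 31.0 and 39.5 CPM in st61 and at 87.3, 115 and 121 CPM in st66 (adjusted p = 0.0586). nr1h4, the nuclear bile acid receptor, was at 131 to 170 CPM in st61 and at 78.5 to 108 CPM in st66 and was not called (adjusted p = 0.231). The calls of cyp7a1 and sult2b1 ended when any 1 st61 library was left out (adjusted p up to 0.1 and 0.099), whereas that of akr1d1 was kept in all 18 alternatives.

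Single genes of carnitine, fatty acid and peroxide handling also rose. bbox1, the last enzyme of carnitine synthesis, rose from 3.05, 2.86 and 6.54 CPM to 29.5, 66.2 and 104 CPM (16.0-fold, adjusted p = 0.00599). cat.1 (chromosome 4, 11285831 to 11300509), a catalase gene of peroxisomes, rose from 94.9, 109 and 132 CPM to 747, 744 and 985 CPM (log2 change 2.88 ± 0.28, adjusted p = 0.00249). cat.2, its neighbour in name, rose from 925, 664 and 704 CPM to 2550.0, 3442 and 3104 CPM (3.97-fold, adjusted p = 0.0163). Reads of these like copies may have been split between them. Neither copy overlapped between the stages, and the 3 st66 libraries were close to each other. ephx2, the soluble epoxide hydrolase, rose 6.76-fold, from 66.0, 59.9 and 121 CPM to 298, 669 and 702 CPM (adjusted p = 0.0122). gpx3, a secreted glutathione peroxidase, rose from 553, 505 and 552 CPM to 944, 3678 and 4758 CPM (adjusted p = 0.0283), with replicate 1 the lowest of st66. At st54 bbox1 was at 104 to 161 CPM, cat.1 at 2362 to 2953 CPM and cat.2 at 1174 to 2311 CPM. ephx2 was at 721 to 1075 CPM and gpx3 at 3137 to 3271 CPM at that stage.

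Of 30 genes of fatty acid oxidation and ketogenesis 2 rose and none fell (6 higher and 2 lower without st66 replicate 1). pdk4, a kinase that restrains pyruvate oxidation, rose from 54.0, 29.9 and 37.1 CPM to 101, 90.4 and 121 CPM (adjusted p = 0.0314). cpt2, the inner carnitine palmitoyltransferase, rose from 44.4, 37.9 and 38.3 CPM to 114, 64.6 and 72.0 CPM (adjusted p = 0.0468). Both were separate between the stages, but their calls were among the least stable, with adjusted p up to 0.15 and 0.21. apoa5, an apolipoprotein that promotes clearance of blood triglycerides in mammals, rose from 127, 40.2 and 76.1 CPM to 342, 619 and 791 CPM (7.2-fold, adjusted p = 0.0162). At st54 apoa5 was at 900 to 1350 CPM. hsd17b13, a lipid droplet enzyme in mammals, was at 0.763, 0.313 and 0 CPM in st61, or 14, 7 and 0 reads, and at 11, 17.6 and 26.1 CPM in st66 (log2 change 5.64 ± 0.79, adjusted p = 0.00898). Its log2 change was 6.71 without st61 replicate 1 and 5.06 without st61 replicate 3. At st54 it was at or below 0.0646 CPM, so its st66 level was the highest of the 3 stages.

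Several other large increases were transporters, receptors and enzymes. slc2a9, a urate transporter in mammals, rose from 3.00, 0.760 and 0.482 CPM to 10.1, 17.2 and 25.0 CPM (adjusted p = 0.0193), against 0.244 to 0.462 CPM at st54. The log2 change of slc2a9 was 3.62, and 4.77 without st61 replicate 1. sstr5, a somatostatin receptor, rose from 2.45, 2.10 and 2.31 CPM to 25.0, 14.2 and 23.9 CPM (9.22-fold, adjusted p = 0.0132). tmprss2.5, a transmembrane serine protease, rose from 3.27, 1.39 and 2.79 CPM to 21.6, 31.5 and 30.3 CPM (11.2-fold, adjusted p = 0.00433). These 3 genes showed no overlap, which was a condition of their choice. bchel, named for its likeness to butyrylcholinesterase, rose 12.4-fold, plekhd1 39.8-fold and the cytochrome P450 gene cyp2a6.7 31.8-fold (adjusted p = 0.0245, 0.00889 and 0.026). At st61 plekhd1 had 11, 8 and 9 reads and cyp2a6.7 had 20, 8 and 3, so both folds rest on few reads there. plekhd1 was at 22.9, 7.81 and 26.5 CPM in st66. cyp2a6.7 belongs to a family of like copies, and its st66 levels were 38.7, 4.84 and 6.46 CPM, so 1 library carried most of its mean. bchel was at 29.9, 55.0 and 16.0 CPM in st61 and at 798, 267 and 189 CPM in st66, again with replicate 1 the highest. At st54 bchel was at 583 to 1449 CPM. Without st66 replicate 1 the log2 change of cyp2a6.7 moved from 4.99 to 3.41 and that of bchel from 3.64 to 2.77, while without st61 replicate 1 cyp2a6.7 was at 5.97. gpnmb, a glycoprotein of melanosomes and macrophages, rose from 15.8, 19.6 and 21.1 CPM to 188, 211 and 98.5 CPM (adjusted p = 0.00998). socs2, a feedback inhibitor of growth hormone signalling, rose from 10.9, 6.44 and 12.1 CPM to 29.5, 29.4 and 59.7 CPM (adjusted p = 0.0163), and tef, a clock-controlled transcription factor, rose 2.81-fold (adjusted p = 0.0293).

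**Figure D2:**
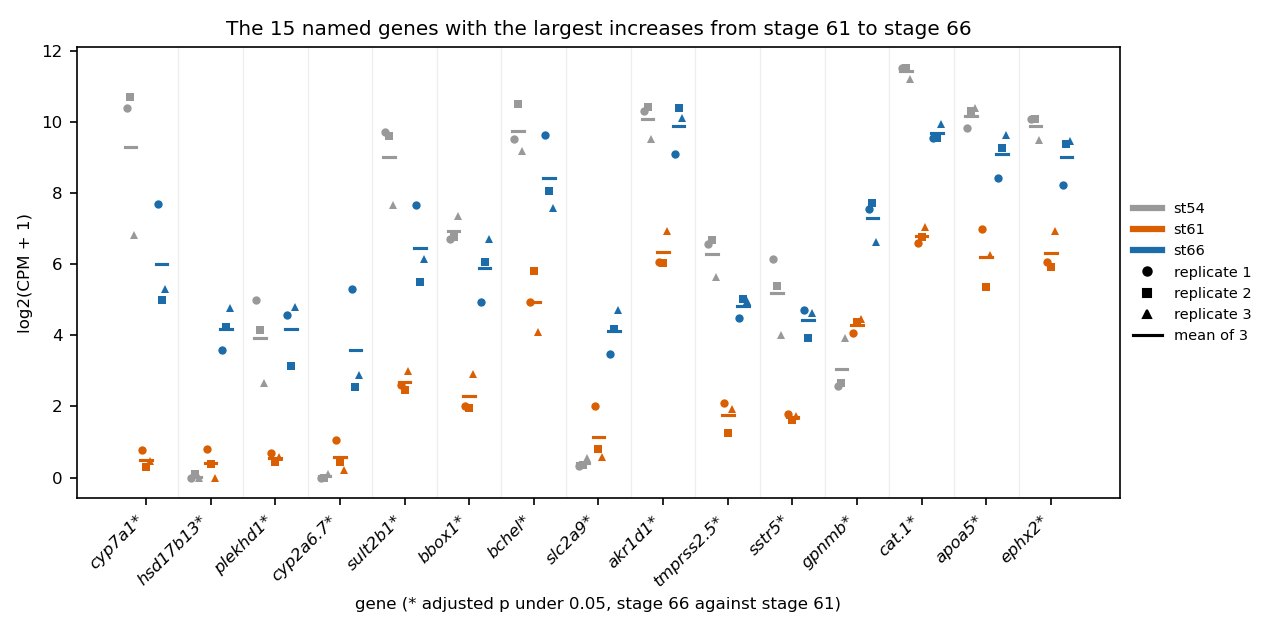
Levels, as log2(CPM + 1), of the 15 named genes with the largest increases from stage 61 to stage 66, by library. They were picked among called genes with a symbol, a mean of at least 10 CPM at st66 and no overlap between the stages. Points are libraries, with a shape for each replicate, and lines are means of 3 libraries. By this choice all st66 points lie above all st61 points in each gene. Most of these genes, namely cyp7a1, sult2b1, bbox1, bchel, akr1d1, tmprss2.5, sstr5, cat.1, apoa5 and ephx2, had their highest means at st54. hsd17b13, cyp2a6.7, slc2a9 and gpnmb had their lowest means there, and plekhd1 was highest at st66.

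Of the 47 gene lists, ribosome biogenesis had the most called members. Of 38 genes of ribosome biogenesis 16 rose, none fell (33 higher and 0 lower at an unadjusted p under 0.05 in edgeR, 29 and 0 by DESeq2), and 31 had all st66 libraries above all st61 libraries. The median log2 change was 1.19. polr1c, a subunit shared by RNA polymerases I and III (chromosome 5, 2576939 to 2588547), rose from 6.87, 7.60 and 8.26 CPM to 34.0, 33.1 and 25.1 CPM (log2 change 2.02 ± 0.19, adjusted p = 0.00249). rrs1, an assembly factor of the large subunit, rose from 4.85, 6.84 and 7.88 CPM to 22.0, 19.5 and 16.6 CPM (adjusted p = 0.0121). nop10, of the particles that modify ribosomal RNA, rose from 14.1, 13 and 13.2 CPM to 36.2, 29.7 and 26.1 CPM (adjusted p = 0.0121). In these 3 genes the st66 libraries, replicate 1 included, stood together above st61. fbl, the nucleolar methyltransferase fibrillarin, rose from 66.9, 61.5 and 78.0 CPM to 220, 163 and 126 CPM (2.47-fold, adjusted p = 0.0341).

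The list as a whole lay above the st61 mean in every st66 library, with median differences of log2(CPM + 1) of 1.32, 1.08 and 0.61 in replicates 1 to 3. The summed level, in which abundant members weigh most, was 3257 to 3874 CPM in st61 and 4973, 9732 and 8633 CPM in st66. Replicate 1 was thus the highest of st66 by the median and the lowest by the sum. The count of called members was 24 without st66 replicate 1, and ran from 1 to 29 over all alternatives. ncl, the nucleolar protein nucleolin, was at 194, 228 and 252 CPM in st61 and at 679, 410 and 289 CPM in st66 and was not called (adjusted p = 0.105). ubtf and rrn3, which help RNA polymerase I to start, had folds of 1.17 and 1.24 (adjusted p = 0.49 and 0.453).

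**Figure D3:**
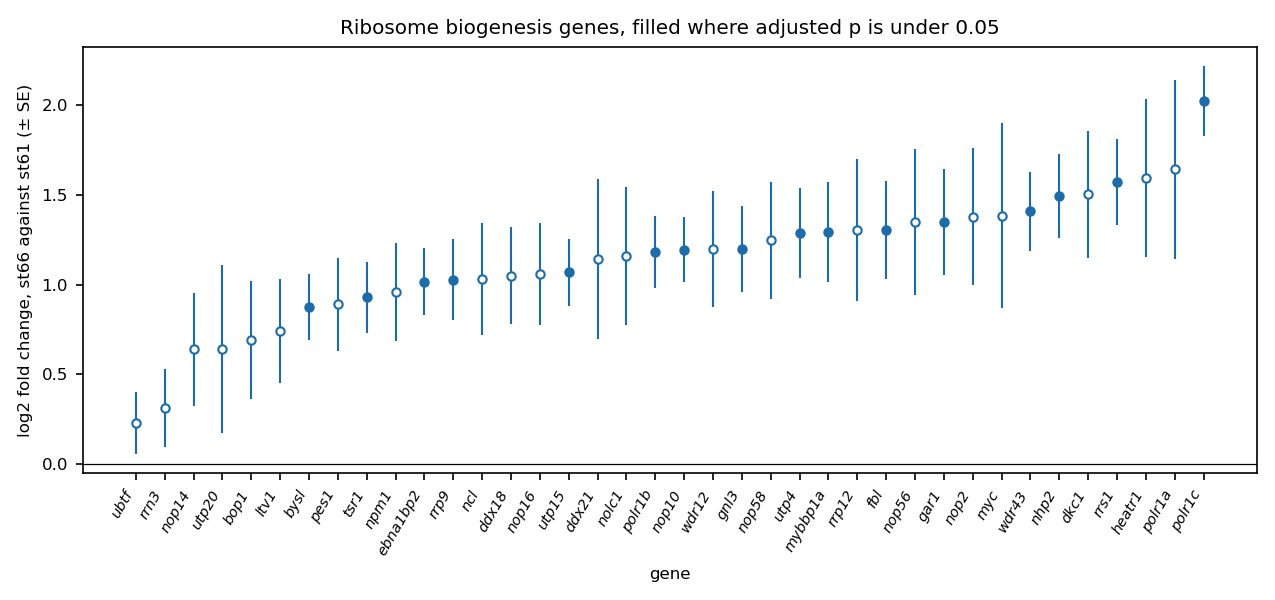
Log2 fold change from stage 61 to stage 66 for the 38 tested ribosome biogenesis genes, ordered by size. Points are estimates from 3 libraries per stage, bars are ± 1 standard error, and filled points have an adjusted p under 0.05. Every estimate lies above 0, from 0.23 in ubtf to 2.02 in polr1c.

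The 76 ribosomal protein genes differed between the st66 libraries. None was called (0 at an unadjusted p under 0.05 in edgeR and 0 by DESeq2), and in none were the stages separate. The summed level was 79833 to 108917 CPM in st61 and 64732, 205527 and 202564 CPM in st66, so replicate 1 lay below st61 and the other two above. rpl3 was at 3564, 2845 and 4085 CPM in st61 and at 2210.0, 8057 and 8169.9 CPM in st66. All 76 were called higher without st66 replicate 1.

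Genes of dividing cells split the st66 libraries the other way. mki67, a marker of cycling cells, was at 49.1, 53.5 and 53.9 CPM in st61 and at 114, 15.8 and 13.6 CPM in st66 (adjusted p = 0.946). Summed over 55 mitosis genes the level was 390 to 436 CPM in st61 and 992, 179 and 200 CPM in st66. Over 47 DNA replication genes it was 550 to 641 CPM in st61 and 1186, 519 and 535 CPM in st66. Replicate 1 was thus above every st61 library in both sums and the other two below. None of these genes was called. At an unadjusted p under 0.05 in edgeR 0 mitosis and 5 replication genes were higher and none lower, and DESeq2 called 0 and 4. Without st66 replicate 1, 40 mitosis genes were lower, and 4 replication genes were higher and 21 lower. pcna, the replication clamp, was at 70.9, 58.0 and 77.1 CPM in st61 and at 124, 98.7 and 115 CPM in st66, with no overlap (adjusted p = 0.0838).

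**Figure D4:**
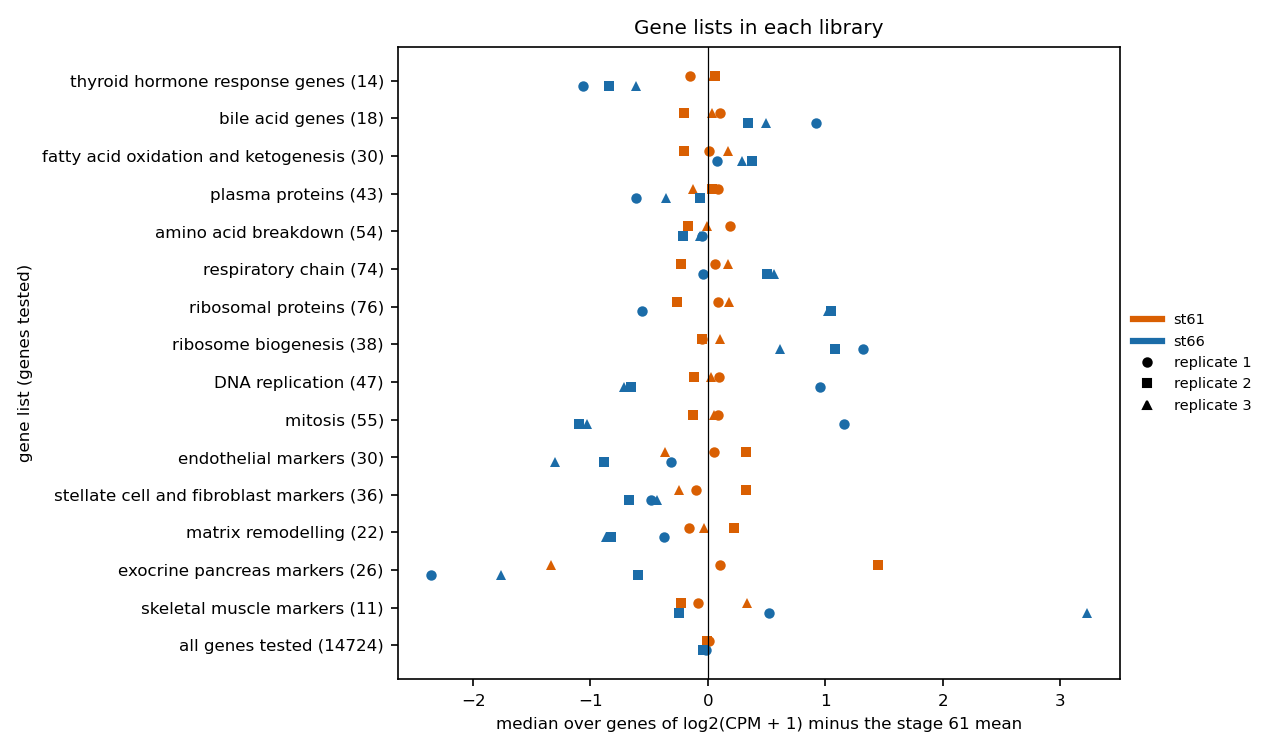
Median over the tested genes of each list of log2(CPM + 1) minus the gene's stage 61 mean, for each library of stages 61 and 66, with the number of genes in parentheses. Hormone response genes lie below 0 and ribosome biogenesis genes above 0 in all 3 st66 libraries, while ribosomal protein, DNA replication and mitosis genes lie on opposite sides in replicate 1 and in replicates 2 and 3.

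Of 54 amino acid breakdown genes 4 fell, 1 rose and 49 were not called, with a median log2 change of -0.03. When st66 replicate 1 was left out, 7 were higher and 7 lower. gnmt, which consumes methyl groups on glycine, fell from 2773, 2213 and 2297 CPM to 383, 658 and 607 CPM (log2 change -2.14 ± 0.30, adjusted p = 0.00916). At st54 it was at 144 to 223 CPM, so the st66 level lay between the other stages. gldc, of glycine cleavage, fell from 321, 244 and 217 CPM to 37.9, 82.0 and 59.4 CPM (adjusted p = 0.0128). oat, ornithine aminotransferase, fell from 75.4, 58.7 and 36.0 CPM to 5.97, 3.59 and 5.19 CPM (11.3-fold, adjusted p = 0.00693). gls2, the liver glutaminase, fell from 95.1, 64.1 and 43.6 CPM to 8.5, 5.47 and 11.5 CPM (7.93-fold, adjusted p = 0.0154). In each of these 4 genes the stages were separate.

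With gnmt, gldc and oat, the fourth amino acid breakdown gene to fall was aldh4a1 of proline breakdown (6.57-fold, adjusted p = 0.0274). The single increase of that list was gstz1, of tyrosine breakdown, from 29.7, 21.8 and 25.6 CPM to 89.2, 77.0 and 91.7 CPM (adjusted p = 0.00465). Exons of gstz1 overlap those of pomt2 on the opposite strand in the deposited annotation, and reads of such pairs may not have been told apart. Of 20 urea cycle and nitrogen genes gls2 alone was called (1 higher and 2 lower without st66 replicate 1). cps1, carbamoyl phosphate synthetase of the urea cycle, was at 8389, 5352 and 5823 CPM in st61 and at 3865, 3982 and 3852 CPM in st66 (1.67-fold lower, adjusted p = 0.203), and arg1, liver arginase, was at 214 to 1024 CPM and 307 to 826 CPM, overlapping.

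Fat synthesis genes changed in both directions. scd, the stearoyl-CoA desaturase, fell from 647, 487 and 113 CPM to 48.2, 10.9 and 11.5 CPM (17.4-fold, adjusted p = 0.0305). Its log2 change was -4.12, and -5.20 without st66 replicate 1. gpam, the first enzyme of triglyceride assembly, fell from 350, 380 and 332 CPM to 53.7, 98.4 and 91.5 CPM (4.36-fold, adjusted p = 0.0162), and me1, malic enzyme, fell 3.28-fold (adjusted p = 0.028). fads2, a desaturase of polyunsaturated fatty acids, rose from 41.0, 33.9 and 66.4 CPM to 406, 275 and 112 CPM (adjusted p = 0.0257). These were the 4 called members of 36 lipogenesis and lipid storage genes, whose median log2 change was -0.02 and of which 5 were higher and 6 lower without st66 replicate 1. acsbg2, an acyl-CoA synthetase, fell from 684, 642 and 243 CPM to 103, 54.0 and 49.7 CPM (7.58-fold, adjusted p = 0.0163). insig1, a sterol sensor, fell from 419, 198 and 255 CPM to 74.5, 62.3 and 57.0 CPM (adjusted p = 0.018), and was the single called gene of 27 in cholesterol synthesis. The list's median by library was 1.21 above the st61 mean in st66 replicate 1 and -0.13 and -0.06 in replicates 2 and 3, in log2(CPM + 1).

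The glycogen and glucose genes named here fell. ppp1r3c.2, a subunit that brings a phosphatase to glycogen, fell from 112, 246 and 228 CPM to 2.94, 5.62 and 7.44 CPM (37.5-fold, adjusted p = 0.0101). agl, the glycogen debranching enzyme, fell from 225, 200 and 228 CPM to 102, 58.4 and 49.3 CPM (adjusted p = 0.0217). slc37a4, the glucose 6-phosphate transporter, fell 2.1-fold and pfkfb1, a liver regulator of glycolysis, 2.84-fold (adjusted p = 0.0433 and 0.0127). Exons of pfkfb1 overlap those of nsmce3 on the opposite strand. agl and slc37a4 were the called members of 14 gluconeogenesis and glycogen genes, and pfkfb1 that of 21 glycolysis genes. fn3k, which removes sugar from glycated proteins, fell from 53.6, 20.3 and 15.3 CPM to 1.76, 5.31 and 4.77 CPM (adjusted p = 0.0286), against at most 0.0770 CPM at st54. The log2 change of fn3k was -2.98, and -2.22 without st61 replicate 1.

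Among plasma proteins 4 of 43 fell and none rose (4 higher and 14 lower at an unadjusted p under 0.05 in edgeR, 2 and 11 by DESeq2). f12, coagulation factor XII, fell from 636, 658 and 658 CPM to 219, 263 and 230 CPM (2.74-fold, adjusted p = 0.02). f5, coagulation factor V, fell 3.01-fold, proc, the anticoagulant protein C, 2.11-fold and a2m, a protease inhibitor, 2.4-fold (adjusted p = 0.0453, 0.0368 and 0.0461). In 19 of the 43 all st66 libraries lay below all st61 libraries, and the median log2 change was -0.32. c3p1, related to complement C3, fell from 1004, 745 and 937 CPM to 240, 127 and 148 CPM (log2 change -2.38 ± 0.31, adjusted p = 0.00586). In a RefSeq gene table c3p1 is annotated as a transcribed pseudogene. None of 22 complement genes was called, with c3 at 11647 to 15491 CPM in st61 and at 8821 to 11213 CPM in st66 (adjusted p = 0.431). The plasma protein counts were 7 higher and 12 lower without st66 replicate 1.

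Of 30 endothelial markers 2 fell and none rose (0 higher and 12 lower at an unadjusted p under 0.05 in edgeR, 0 and 6 by DESeq2). lyve1, a hyaluronan receptor of sinusoidal and lymphatic endothelium, fell from 151, 180 and 108 CPM to 57.5, 27.0 and 25.4 CPM (3.97-fold, adjusted p = 0.0239). cldn5, a tight junction protein of endothelium, fell from 115, 125 and 98.2 CPM to 39.9, 39.5 and 38.9 CPM (2.85-fold, adjusted p = 0.0132). stab2, a scavenger receptor of liver sinusoids, was at 776, 1394 and 1513 CPM in st61 and at 417, 223 and 81.1 CPM in st66 without reaching the threshold (adjusted p = 0.0789). All 3 were separate between the stages, with replicate 1 the highest of st66. The endothelial marker cdh5 was at 73.5, 95.3 and 47.1 CPM in st61 and at 59.4, 23.0 and 13.5 CPM in st66. kdr, another, was at 7.14, 6.84 and 5.25 CPM in st61 and at 6.62, 3.28 and 1.54 CPM in st66. Both overlapped between the stages and were not called. Of the 30 markers 11 were separate downwards, and the median log2 change was -0.74. Their summed level was 2966 to 4178 CPM in st61 and 1943, 1224 and 884 CPM in st66. The count of lower markers was 14 without st66 replicate 1.

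lamb3, a laminin chain of epithelial basement membranes, fell from 44.6, 33.6 and 23.5 CPM to 1.35, 1.41 and 3.23 CPM (17.7-fold, adjusted p = 0.00541). mfap2, a microfibril protein, was the single fallen gene of 36 stellate cell and fibroblast markers (6.09-fold, adjusted p = 0.02), whose summed level was 3863 to 5060 CPM in st61 and 3096, 2693 and 3198 CPM in st66. At an unadjusted p under 0.05 in edgeR 0 of the 36 were higher and 14 lower, and DESeq2 called 0 and 7. The stages were separate downwards in 13 and upwards in 1, and the median log2 change was -0.66. The fibroblast markers col1a1 (504, 873 and 662 CPM in st61, 380, 304 and 593 CPM in st66), col1a2 and pdgfrb overlapped between the stages and were not called. Of 22 matrix remodelling genes 2 fell and none rose, among them the protease adamts5 (4.66-fold, adjusted p = 0.017). The matrix list had 0 higher and 11 lower genes at an unadjusted p under 0.05 in edgeR, and 0 and 4 by DESeq2. The calls of mfap2 and adamts5 were lost when single st61 or st66 libraries were left out, with adjusted p up to 0.1 and 0.078. Of 34 genes of the TGF beta and BMP pathway 3 fell and none rose, with fstl1 and tgfbr3 among them (2.15-fold and 3.68-fold). In that pathway 1 gene was higher and 10 lower at an unadjusted p under 0.05 in edgeR, and 0 and 5 by DESeq2. Without st66 replicate 1, 10 fibroblast, 6 matrix and 3 TGF beta and BMP genes were lower and none higher. Over all genes 1200 of 14966 were lower in that setting. Of 44 lysosome and autophagy genes 3 fell, among them gusb, beta-glucuronidase, from 93.1, 110 and 92.8 CPM to 58.8, 41.4 and 38.5 CPM (adjusted p = 0.0286). The other two were asah1 and lamp2 (2.04-fold and 1.86-fold). The lysosome and autophagy list had 2 higher and 9 lower genes without st66 replicate 1. With all libraries it had 1 higher and 12 lower at an unadjusted p under 0.05 in edgeR, and 0 and 8 by DESeq2.

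Further large decreases came from signalling and secreted proteins. mlnr, which encodes the receptor of the gut hormone motilin (chromosome 2, 149103589 to 149109753), fell from 10.8, 20.2 and 30.5 CPM to 0.327, 0.468 and 0 CPM (log2 change -6.15 ± 0.82, adjusted p = 0.00686). The st66 values of mlnr rest on 8, 3 and 0 reads. At st54 it was at 0, 0 and 0.231 CPM, so of these 3 stages st61 held nearly all of its reads. cxcl14, a chemokine, fell from 31.1, 25.8 and 4.40 CPM to 0.940, 0.625 and 0.842 CPM (adjusted p = 0.0154). sftpa, a collectin of the surfactant family, fell from 73.5, 114 and 242 CPM to 13.7, 28.6 and 18.4 CPM (7.13-fold, adjusted p = 0.0162). Its log2 change was -2.83, and -2.25 without st61 replicate 3. hebp2, a heme-binding protein, fell from 132, 132 and 175 CPM to 17.2, 20.1 and 18.8 CPM (7.81-fold, adjusted p = 0.0031), below the 260 to 520 CPM of st54. In all of these the stages were separate, which was a condition of their choice. pacsin1, an adaptor of membrane uptake, fell 7.97-fold (adjusted p = 0.00465), and spock3, a matrix proteoglycan, 19.4-fold with st61 levels of 21.9, 9.57 and 1.07 CPM (adjusted p = 0.0477). The log2 change of spock3 was -4.28, and -3.29 without st61 replicate 1 and -5.14 without st66 replicate 1. cyp2b6, a drug-metabolising P450, fell 3.93-fold (adjusted p = 0.024), and with the increases of sult2b1 and ephx2 made up the 3 called genes of 40 in hepatic detoxification (5 higher and 4 lower without st66 replicate 1).

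**Figure D5:**
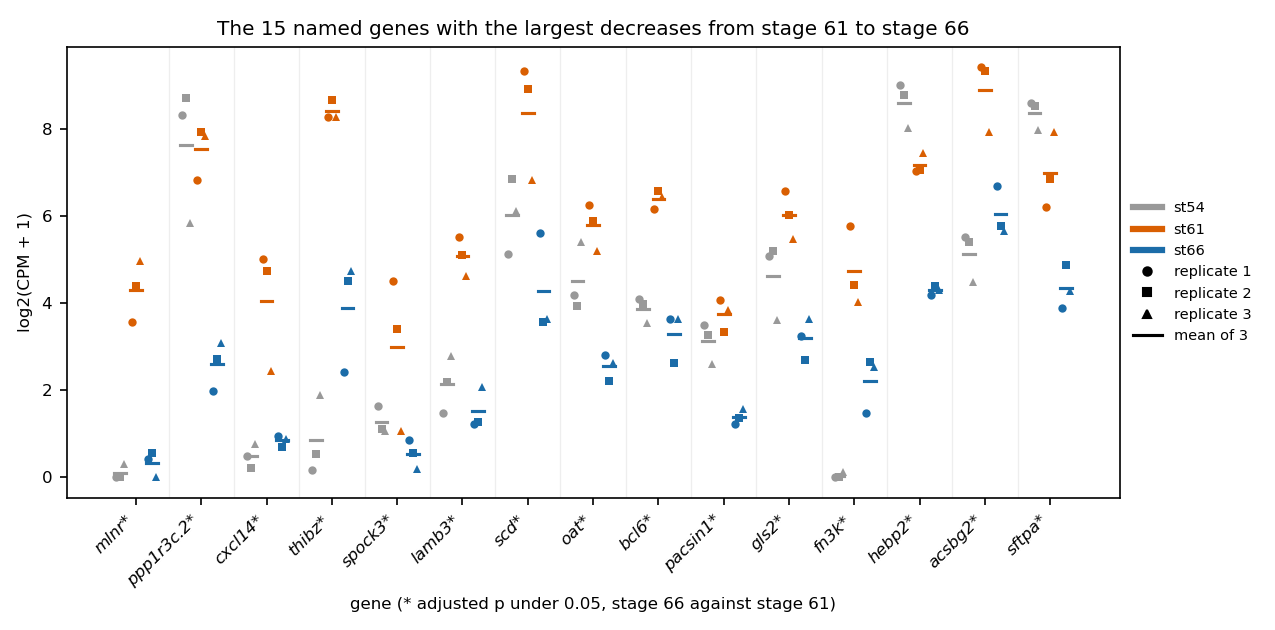
Levels, as log2(CPM + 1), of the 15 named genes with the largest decreases from stage 61 to stage 66, by library. They were picked among called genes with a symbol, a mean of at least 10 CPM at st61 and no overlap between the stages. Points are libraries, with a shape for each replicate, and lines are means of 3 libraries. By this choice all st66 points lie below all st61 points in each gene. mlnr, cxcl14 and fn3k were close to 0 at st54.

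Markers of other cells that a liver sample can hold were counted to show what else differed. Of 12 globin genes 1 fell (ngb, neuroglobin, from 4.25, 4.70 and 3.97 CPM to 1.43, 0.781 and 0.281 CPM). The st66 values of ngb rest on 35, 5 and 2 reads, the last under the floor of 3. Its call was kept in 10 of 18 alternatives, with adjusted p up to 0.13. With st66 replicate 1 left out, 4 globin genes were higher and 1 lower, hba1 was called with a log2 change of 1.04 against 0.76 with all libraries, and the log2 change of ngb moved from -2.22 to -3.02. The median globin difference of log2(CPM + 1) from the st61 mean was -0.54, 0.94 and 0.98 in st66 replicates 1 to 3. The adult globin hba1 was at 3165, 2873 and 2486 CPM in st61 and at 2885, 5987 and 5581 CPM in st66 (adjusted p = 0.278), and reads of the like globin copies may have been split. Exocrine pancreas markers varied within both stages, with summed levels of 1351 to 5621 CPM in st61 and 700, 1670 and 731 CPM in st66, and none of 26 was called (0 higher and 13 lower at an unadjusted p under 0.05 in edgeR, 0 and 5 by DESeq2). The acinar regulator ptf1a, too low to be tested, was at 0 in all 3 st66 libraries. In st61 it was at 0.382, 1.88 and 0.107 CPM, the last under the floor of 3 counts. The other fixed acinar markers, cpa1 and cela2a, overlapped between the stages and were not called. cpa1 was at 240, 635 and 94.8 CPM in st61 and at 17.9, 126 and 41.7 CPM in st66. Skeletal muscle markers summed to 29.2 to 40.5 CPM in st61 and to 60.8, 15.9 and 716 CPM in st66. The muscle creatine kinase ckm reached 264 CPM in st66 replicate 3 but 2.34 to 6.58 CPM in the other 5 libraries. None of 11 muscle genes was called, and their part in other differences was not tested.

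Of 11 tested pigment cell genes 2 rose, gpnmb and trpm1, a cation channel of melanocytes, at 0.981, 0.537 and 1.66 CPM in st61 and 4.05, 4.53 and 4.49 CPM in st66 (adjusted p = 0.0339). The melanin enzyme genes tyr and dct stayed too low to be tested, at 0 to 0.140 CPM and 0.0545 to 1.4 CPM over the 6 libraries. No gene was called among 27 myeloid, 32 lymphocyte, 16 bile duct, 11 intestinal epithelium, 12 adipocyte, 5 kidney and 2 endocrine pancreas markers. In the same way 27 antigen presentation, 27 erythroid, 15 iron, 74 respiratory chain, 35 endoplasmic reticulum folding, 32 proteasome, 26 hepatocyte transcription factor, 37 apoptosis and 45 Wnt pathway genes held no call. Summed over all 24 lists without a call, 63 of 681 entries were higher and 43 lower at an unadjusted p under 0.05 in edgeR, and DESeq2 called 19 and 17. Over all 14724 genes 3014 passed the unadjusted threshold in either direction. The 24 lists were pooled for holding no call, so their smaller share was partly set by that choice. At that threshold 13 of 26 exocrine pancreas markers were lower and none higher. Of antigen presentation genes 8 of 27, and of skeletal muscle genes 7 of 11, were higher and none lower. Of 76 ribosomal protein and 55 mitosis genes none passed it. Without st66 replicate 1, 11 respiratory chain, 7 proteasome, 7 antigen presentation, 7 skeletal muscle, 5 myeloid and 5 apoptosis genes were higher. Each of these lists held no higher gene in some of the other alternatives. The skeletal muscle sum was 15.9 CPM in st66 replicate 2, below the 29.2 to 40.5 CPM of st61, and 716 CPM in st66 replicate 3. Over all genes, 1614 of 14966 were higher and 1200 lower without st66 replicate 1. In the same setting 3 erythroid genes were higher and 5 lower, and the other lists just given as holding no call had at most 4 called genes in a direction. Of 32 immediate early and heat shock genes 2 rose, the chaperonin partner hspe1 (2.03-fold, adjusted p = 0.0279) and hsp70 (3.6-fold, adjusted p = 0.0468). The log2 change of hsp70 was 1.85, and 2.45 without st61 replicate 1, and the list had 6 higher genes without st66 replicate 1. tef was the called gene of 20 in the circadian clock (1 higher and 3 lower without st66 replicate 1). In the growth hormone and insulin axis of 22 genes socs2 rose and foxo3, a transcription factor that insulin signalling holds back, fell 1.96-fold (adjusted p = 0.0274), with 4 higher and 2 lower genes without st66 replicate 1.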

How the data were processed

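Whole-number counts of reads per gene, as the authors deposited them, were the input. The submitters' processing notes name cutadapt 3.4 and STAR 2.7.8a. What genome build, annotation, strand setting and duplicate handling were used is not given in the sources at hand, so overlapping genes and like copies are uncertain. Coordinates are those of the deposited table, in which 26528 of 26529 gene names matched a RefSeq table for the UCB_Xtro_10.0 assembly and 99.1% had equal start and end. otogl2 and neb, whose lines were broken, were left out.

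Counts of the 9 untreated libraries were scaled by TMM, filtered by filterByExpr and fitted once with edgeR 4.0.16 (limma 3.58.1, R 4.3.3; robust quasi-likelihood, 6 residual degrees of freedom). st66 was contrasted with st61, with Benjamini-Hochberg adjustment over 14724 genes. Standard errors are the log2 change over the root of F. In simulated counts for this contrast on 14724 genes, 9 of 100 2-fold and 84 of 100 4-fold changes were recovered, with 9 false among 102 calls. The changed genes were drawn from the better covered genes, and each gene had the same spread in all libraries. The wider spread of st66 and its outlying replicate 1 were not simulated, so these rates may not hold for the data. p-values rest on a spread per gene pooled over st54, st61 and st66, with 3 tadpoles per stage from the same parents. The pooled spread is not that within st61 or st66 alone. At st54 the biological coefficient of variation was 33.0%.

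The members of the 47 gene lists and the tests were chosen with earlier results of these data known. Named genes are the 15 largest increases and decreases with a symbol, at least 10 CPM and no overlap, up to 3 called members per list and direction or the most abundant member, 16 fixed genes and the 5 most abundant calls per direction. Defining markers of cell types, such as cdh5, kdr and stab2, were fixed with the lists. Other members named, with slc51a and baat among them, were chosen after their values were seen. Some genes that this rule names are not reported here. Alternatives were DESeq2 1.42.0, other scaling, no filter, a replicate block, other sets of libraries, thinning and leaving out each library.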

Additional observations from a re-analysis of the deposited data

How the results depend on the processing

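The counts of 284 higher and 220 lower genes held within 1.5 times with RLE or upper-quartile scaling, with no low-count filter, without the 20 most abundant genes and in libraries thinned to the smallest total. They were 740 and 656 with DESeq2, 868 and 647 with all 12 libraries, and 181 higher with the st61 and st66 libraries alone. Leaving out 1 library gave 26 to 1614 higher and 43 to 1200 lower. The smallest came without st61 replicate 2 and the largest without st66 replicate 1. Counts were 51 and 61 without st61 replicate 1, 81 and 104 without st61 replicate 3, 55 and 45 without st66 replicate 2, 123 and 90 without st66 replicate 3, 147 and 130 without st54 replicate 1, 175 higher without st54 replicate 2, and 366 lower without st54 replicate 3. With st66 replicate 1 as the only st66 library, added after seeing the data, its spread is assumed to be that of the other groups, and the counts were 436 and 76, and mki67, not called otherwise in that direction, had a log2 change of 1.17. The share of calls that were higher was 56.3%, and 37.7%, 43.8% and 45.5% without st61 replicates 2, 3 and 1, and 85.2% in the added setting. No called gene changed sign in any of these. The cause was not tested.

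Replicate numbers are not known to pair the samples. Same-numbered st61 and st66 libraries deviated from their stage means with correlations of 0.03, -0.04 and 0.11, and other pairs with -0.21 to 0.17. Such correlations over genes cannot settle whether the numbers mark a pairing. With the replicate block 111 genes were higher and 106 lower. It ended 27 of the 75 named calls, and the fit of the st61 and st66 libraries alone ended 21. Thinning to the smallest total of the 9 libraries gave 247 higher and 230 lower genes.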

Other observations

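Further families of the ribosome and its partners were counted as complete lists put together after the values were seen, so their counts are descriptions. Of 78 genes of the small subunit processome and of large subunit assembly 35 were higher at st66 and none lower, with a median log2 change of 1.08, and 52 were higher without st66 replicate 1. utp3, of the processome, was at 14.4, 13.1 and 13.2 CPM in st61 and at 38.9, 29.7 and 28.2 CPM in st66, and nat10, which acetylates ribosomal RNA, was at 19.1, 19.9 and 24.4 CPM and at 44.9, 49.8 and 42.5 CPM. Of 23 other subunits of RNA polymerases I and III and their partners 4 were higher, such as polr1e, from 10.6, 9.08 and 11.5 CPM to 26.5, 29.7 and 27.2 CPM. Of 56 genes of transfer RNA modification 10 were higher, among them trmt6, a methyltransferase subunit (3.11-fold). The counts were 4 of 16 for the RNA exosome, 2 of 8 for the CCT chaperonin that folds actin and tubulin (tcp1 and cct4), 6 of 78 for the mitochondrial ribosome and 1 of 20 for cytosolic transfer RNA synthetases (yars1), with none lower. Without st66 replicate 1, 41 mitochondrial ribosome, 17 transfer RNA modification and 9 RNA polymerase genes were higher. So were 6 exosome, 6 chaperonin and 4 synthetase genes, again with none lower. Over all genes 1614 of 14966 were higher in that setting. With all libraries, 45 of the 78 mitochondrial ribosome genes were separate upwards, against 12.3% of all genes.

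Of 65 genes listed as peroxisomal 7 were higher and 1 lower, against 1.93% and 1.49% of all genes. Without st66 replicate 1, 13 were higher and 2 lower. The stages were separate upwards in 20 and downwards in 5, and the median log2 change was 0.29. The median difference of log2(CPM + 1) from the st61 mean was 0.06, 0.44 and 0.31 in st66 replicates 1 to 3. Beside both catalases and ephx2 the higher genes included uox, urate oxidase, at 123, 105 and 119 CPM in st61 and 357, 407 and 416 CPM in st66 (3.4-fold). acot12, an acetyl-CoA hydrolase, was at 11.7, 9.17 and 10.8 CPM and at 18.5, 48.7 and 59.2 CPM. abcd3, a fatty acid importer, and mlycd, malonyl-CoA decarboxylase, were 2.01-fold and 3.66-fold higher, and acox2 was the lower gene.

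Some genes without a symbol showed the clearest differences, and were chosen after their values were seen. LOC100497454 (chromosome 8, 136694283 to 136704548) was at 0.872, 0.671 and 0.429 CPM in st61 and at 40.7, 216 and 127 CPM in st66, against 165 to 252 CPM at st54 (adjusted p = 0.00215). LOC100498477, on the same strand of chromosome 8 from 136771455 to 136787008, was at 5.23, 2.95 and 4.66 CPM and at 237, 601 and 491 CPM (adjusted p = 0.00215). In the other direction LOC100488751 (chromosome 2, 174099563 to 174100243) was at 468, 278 and 410 CPM in st61 and at 6.71, 4.53 and 8.0 CPM in st66 (adjusted p = 0.000455), and LOC100497914 was at 469, 416 and 524 CPM and at 41.6, 35.6 and 23.4 CPM.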
